A study of Rattus norvegicus with 8 samples.

Results

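The 9 genes described here make retinoic acid (RA) from vitamin A, break it down, or bind and carry retinoids. They are *Rdh10*, *Dhrs3*, *Aldh1a1* and *Aldh1a2* (synthesis and its control), *Cyp26b1* (breakdown), *Crabp1* and *Crabp2* (binding inside the cell), and *Rbp4* and *Stra6* (transport and uptake of retinol). They were chosen by name for these roles, at a time when earlier results of these data were known, and they are 9 of the 15159 genes that could be named on the arrays. Each was represented by 1 probe, so no second probe of any of these genes could be compared. The rats were male F344 (F344N in the labels), an inbred strain whose food intake and body weight follow photoperiod, and were held in SD (8 h light and 16 h dark). A group of 4 rats received 5 μl of all-trans RA into the third ventricle, and the control group of 4 received vehicle. The labels give the RA concentration as 1e-05 M and the study's methods give 1e-04 M for these animals. The labels call the vehicle saline, whereas the methods describe 10% DMSO in saline, so the dose and the vehicle are uncertain. Rats of both groups carried a cannula, whose placement had been tested with an angiotensin injection 7 days earlier, so this surgery and test were common to RA and control animals. Hypothalamic blocks of 60 to 80 mg that included the arcuate nuclei were taken 24 hrs after the injection. The age of the rats was not given in the sources used here.

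Retinol reaches cells bound to the plasma carrier encoded by *Rbp4* and can enter them through the membrane receptor encoded by *Stra6*. Retinol dehydrogenases such as that of *Rdh10* oxidise it reversibly to retinaldehyde, the reductase encoded by *Dhrs3* turns retinaldehyde back into retinol, and the retinaldehyde dehydrogenases of *Aldh1a1* and *Aldh1a2* complete the irreversible step to RA. RA is carried in the cytoplasm by the proteins of *Crabp1* and *Crabp2*, acts through nuclear receptors, and is oxidised for removal by enzymes of the CYP26 family, of which *Cyp26b1* encodes the main form in the brain. In many tissues RA itself changes the expression of several of these genes, so that synthesis and removal are adjusted to supply. In the rodent hypothalamus, parts of this pathway are found around the third ventricle and change with photoperiod. The comparison asks how their mRNA differed in the hypothalamus after RA was supplied from outside.

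Every array carried RNA of RA-injected rats in one colour (Cy3 or Cy5) and RNA of vehicle-injected rats in the other. RA was labelled with Cy5 on arrays 1, 3, 6 and 8 and with Cy3 on arrays 2, 4, 5 and 7. The arrays shared 1 slide, with arrays 1 to 4 in its first row and 5 to 8 in its second. Values are log2 ratios of RA over vehicle after normexp background correction and loess normalisation, so that 0 means an equal level and a value below 0 a lower level after RA. The methods' threshold, an unadjusted p under 0.01 in limma, was used for calls, and the p given is the largest over the 24 possible ways of pairing arrays as dye-swaps, because the sources do not say which arrays carry the same RNA. The test thus measures the spread between 4 pairs of arrays, and no source says which rat an array carried. The standard error (SE) belongs to the same fit, and p values are printed after Benjamini-Hochberg adjustment over all 30367 probes. A gene is called detected where Agilent's mark for a signal well above background was set in all 8 RA channels or in all 8 vehicle channels. The mark was set for 57.4% of probes in the RA channel of array 5, the lowest array, and for up to 74.6% elsewhere. As a check of the tissue, 14 of the 15 measured hypothalamic neuropeptide genes were detected.

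Of the 9 retinoid genes, 2 were lower after RA (*Cyp26b1* and *Dhrs3*) and 0 were higher. Among all named genes 0.792% were lower and 3.52% were higher by the same threshold. After adjustment, 0 of the 9 passed an adjusted p of 0.05, and neither did any other named gene (0% called), the lowest adjusted p in limma being 0.222. At an unadjusted p under 0.05 there were 3 of the 9, the third being *Aldh1a1*, beside 13.1% of all named genes. The median log2 fold change of the 9 was -0.09, beside -0.0047 over all named genes, and 8 of the 9 had a value below 0, beside 52.4% of all named genes. All but *Rdh10* were detected, in both channels of every array, and no spot was saturated. In each of the 9 genes the levels in the RA and vehicle channels overlapped across arrays. How many of all named genes overlap in this way was not counted, so the overlap is not read as a trait of these genes.

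**Figure D1:**
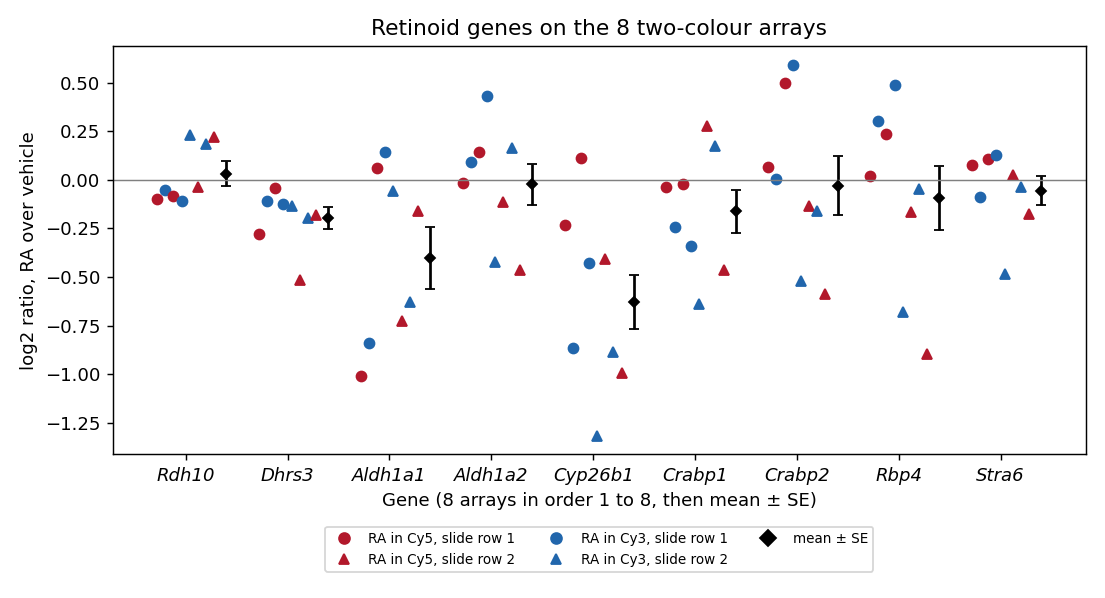
Log2 ratio of RA over vehicle (vertical axis) for the 9 retinoid genes (horizontal axis) on the 8 arrays, red where RA was in Cy5 and blue where it was in Cy3, circles for slide row 1 and triangles for slide row 2; diamonds and bars are the mean and SE. *Cyp26b1* lies below 0 on all arrays but array 3, *Dhrs3* on all 8, and for *Rbp4* and *Crabp2* all circles are above 0 and all triangles below.

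*Cyp26b1*, whose enzyme clears RA, had the largest difference of the 9. Its log2 ratios on arrays 1 to 8 were -0.23, -0.86, 0.11, -0.43, -1.32, -0.41, -0.89 and -0.99. The ratio was therefore below 0 on every array but the third, where it was slightly above, and array 5 had the lowest value. The mean was -0.63 (SE 0.14, 4 pairs of arrays, adjusted p = 0.258), which is 0.648-fold or 35.2% lower after RA, with a 95% confidence interval of -0.95 to -0.30 on the log2 scale. It passed the threshold, and by p it ranked 218 of the named genes. The log2 intensity in the RA channel had a lowest, median and highest value of 7.28, 8.77 and 9.66, against 8.60, 9.38 and 9.72 in the vehicle channel. RA levels thus reached lower than any vehicle level, while the highest values of both channels were close. The probe was printed in 10 spots, of which 7 to 10 entered per array and had a median SD of 0.092 within an array. Since the p kept is the largest over the 24 pairings, passing the threshold means passing it in all of them.

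The *Cyp26b1* difference was also taken by slide row and by dye order. The mean log2 ratio was -0.35 in slide row 1 and -0.90 in slide row 2, a difference of -0.55 (adjusted p = 0.157, limma with the 8 arrays taken as independent). In that fit the row difference passed an unadjusted p under 0.01. With RA in Cy5 the mean was -0.38, and with RA in Cy3 it was -0.87. The dye term was taken from another limma fit of the 8 arrays, without slide row. There it narrowly missed an unadjusted p under 0.05. Its p in the fit with slide row is not given, so a dye difference is not excluded. All 4 of these row and dye order means were below 0. The call was lost on the 4 arrays with RA in Cy5 alone (-0.38), with plain background subtraction (-0.80) and with Agilent's own log ratio (-0.82). When the signs of the 4 pair means were flipped in all ways (an exact permutation test, two-sided), the p was the smallest such a design can give, which is above 0.05.

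**Figure D2:**
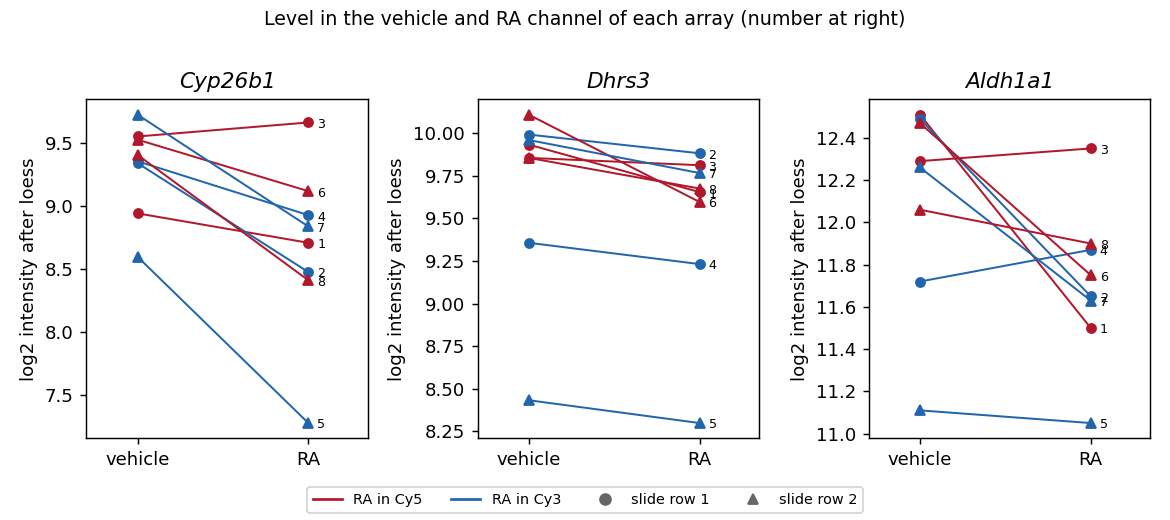
Log2 intensity after loess (vertical axis) of *Cyp26b1*, *Dhrs3* and *Aldh1a1* in the vehicle and RA channel, with a line for each of the 8 arrays, numbered at the right, coloured by dye order and with circles for slide row 1 and triangles for slide row 2. For *Dhrs3* all 8 lines descend from vehicle to RA, for *Cyp26b1* all but that of array 3, and for *Aldh1a1* all but those of arrays 3 and 4.

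*Dhrs3*, whose reductase returns retinaldehyde to retinol and so limits RA synthesis, showed a small but regular difference. Its log2 ratios on arrays 1 to 8 were -0.28, -0.11, -0.04, -0.13, -0.13, -0.51, -0.19 and -0.18. All 8 were below 0, as in 1.8% of all named genes, and array 6 had the largest difference while array 3 was nearly at 0. The mean was -0.20 (SE 0.056, adjusted p = 0.305), or 0.872-fold, with a 95% confidence interval of -0.33 to -0.07. The RA channel had a lowest, median and highest log2 intensity of 8.30, 9.67 and 9.88, and the vehicle channel had 8.43, 9.90 and 10.11. Array 5 was the lowest in both channels. The call was close to the threshold. It held in just 3 of the 16 fits that left out 1 array of each dye order. These were the fits without array 3 and array 4, 5 or 7. The log2 fold change over the 16 was -0.24 to -0.15. The row means were -0.14 and -0.26 and the dye order means -0.25 (RA in Cy5) and -0.14 (RA in Cy3).

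Some markers of immune cells also differed between RA and vehicle. By the same threshold, 3.52% of all named genes were higher and 0.792% lower. Of the 6 measured monocyte and neutrophil genes, of which 4 were detected, 3 rose after RA (log2 fold change 1.43 for *Cd14*, 1.30 for *Lyz2* and 1.25 for *S100a9*) and 0 fell. The median log2 ratio of that list on arrays 1 to 8 was 0.82, 0.63, 0.27, 0.35, 1.00, 2.08, 1.94 and 1.34, above 0 on every array. It was highest on array 6, where *Dhrs3* was lowest, and nearly as high on array 7, where *Dhrs3* was at -0.19. The summed intensity of the list was 7763 to 47650 with RA and 4902 to 12330 with vehicle. Over the 8 arrays its r was -0.733 with *Dhrs3* and -0.352 with *Cyp26b1*. Of the 7 microglia genes, all detected, 3 rose (0.88 for *Aif1*, 0.83 for *C1qa* and 0.87 for *Itgam*) and 1 fell (-0.52 for *Tmem119*). The medians of this list were between 0.12 and 0.80, its summed intensity was 14130 to 51350 with RA and 7862 to 29910 with vehicle, and its r was -0.499 with *Dhrs3* and -0.413 with *Cyp26b1*. The part of these cells in the lower values of *Cyp26b1* and *Dhrs3* was not tested.

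The promoters of the genes with a called difference are shown because RA receptors bind DNA at short motifs. RefSeq promoter sequences (GRCr8, 250 bases before to 50 after the start) were matched for 8 of the 9 genes, all but *Rdh10*. Both strands were searched for the receptor motifs AGGTCA and AGTTCA and for direct repeats of either spaced by 2 or 5 bases. The first was in 0 of the 8 promoters, against 16.2% of 33469 rat promoters of the same length, and the second was in 1 of the 8, *Stra6*, against 14.5%. The direct repeats were in 0 of the 8 and are rare in all promoters (0.0508% for a spacing of 2 and 0.0299% for 5). *Cyp26b1* (chr4:118616177-118616426, minus strand) and *Dhrs3* (chr5:162031603-162031852, plus strand) were the lower genes, and *Stra6* (chr8:67444507-67444756, plus strand) is shown for its match in capitals, at -132 to -127 from the start. The 250 bases before each start read 5′ to 3′:
Cyp26b1: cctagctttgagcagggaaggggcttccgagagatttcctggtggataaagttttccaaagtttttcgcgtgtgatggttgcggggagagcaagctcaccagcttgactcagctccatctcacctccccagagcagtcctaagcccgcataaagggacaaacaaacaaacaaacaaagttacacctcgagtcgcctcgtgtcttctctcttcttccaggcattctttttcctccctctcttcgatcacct
Dhrs3: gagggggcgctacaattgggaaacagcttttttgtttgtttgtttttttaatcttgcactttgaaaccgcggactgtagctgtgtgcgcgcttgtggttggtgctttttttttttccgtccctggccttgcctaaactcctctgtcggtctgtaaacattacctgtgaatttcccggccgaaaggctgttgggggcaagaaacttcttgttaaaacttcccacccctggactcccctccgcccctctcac
Stra6: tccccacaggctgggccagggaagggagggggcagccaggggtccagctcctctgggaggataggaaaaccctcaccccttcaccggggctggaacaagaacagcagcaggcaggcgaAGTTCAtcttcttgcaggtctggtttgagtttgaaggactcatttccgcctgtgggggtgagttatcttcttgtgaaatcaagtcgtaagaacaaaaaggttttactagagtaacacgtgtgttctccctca
The sequences hold 9 (*Cyp26b1*), 10 (*Dhrs3*) and 5 (*Stra6*) CpG dinucleotides, where the median over all promoters was 5. A match is only a match of letters, and the windows do not cover sites further from the start.

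The other enzymes of synthesis had no called difference. *Aldh1a1*, which makes RA from retinaldehyde, had log2 ratios of -1.01, -0.84, 0.06, 0.15, -0.06, -0.73, -0.63 and -0.16 on arrays 1 to 8. Arrays 1, 2, 6 and 7 were far below 0 and the other 4 were near it. The mean of -0.40 (SE 0.16, 95% confidence interval -0.78 to -0.03, adjusted p = 0.426) missed the threshold, which 15 of the 24 pairings passed. The pairing 1-2, 3-4, 6-7 and 8-5, within which deviations of the arrays were most alike, was not among the 15 and gave the largest p. With 1 array of each dye order left out, the mean ranged from -0.57 (without arrays 3 and 4, where it passed) to -0.23 (without arrays 1 and 2), and it passed in 1 of 16 such fits. Its lowest, median and highest log2 intensity was 11.05, 11.70 and 12.35 with RA and 11.11, 12.27 and 12.51 with vehicle. The 2 spots of the probe had a median SD of 0.018 within an array. The split among arrays did not follow the slide rows, whose means were -0.41 and -0.39, or the dye order, whose means were -0.46 where RA was in Cy5 and -0.34 where it was in Cy3.

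*Aldh1a2*, the second RA-producing dehydrogenase, had log2 ratios of -0.02, 0.09, 0.14, 0.43, -0.42, -0.12, 0.17 and -0.46, with 4 arrays on each side of 0. Its mean was -0.02 (SE 0.11, adjusted p = 0.969), and the 95% confidence interval of -0.27 to 0.23 leaves room for a difference of either sign. *Rdh10*, which oxidises retinol, was well above background in 7 of 8 RA channels and 7 of 8 vehicle channels, and so was not detected by the rule used here. Its log2 ratios were -0.10, -0.05, -0.08, -0.11, 0.23, -0.03, 0.18 and 0.22. It had the single mean above 0, at 0.03 (SE 0.065, adjusted p = 0.925, 95% confidence interval -0.12 to 0.18).

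The binding and transport genes had means between -0.16 and -0.03, and none passed the threshold. *Crabp1*, whose product holds RA in the cytoplasm, had log2 ratios of -0.04, -0.24, -0.02, -0.34, -0.64, 0.28, 0.17 and -0.46 (mean -0.16, SE 0.11, adjusted p = 0.686, 95% confidence interval -0.42 to 0.10). It was below 0 on 6 arrays and above on arrays 6 and 7. *Crabp2*, whose product delivers RA to its nuclear receptors, had log2 ratios of 0.07, 0.01, 0.50, 0.59, -0.52, -0.13, -0.16 and -0.59 (mean -0.03, SE 0.15, adjusted p = 0.974, 95% confidence interval -0.39 to 0.33). *Rbp4*, the retinol carrier, had 0.02, 0.30, 0.24, 0.49, -0.68, -0.16, -0.05 and -0.90 (mean -0.09, SE 0.17, adjusted p = 0.911, 95% confidence interval -0.48 to 0.30). In both genes, arrays 1 to 4 lay above 0 and arrays 5 to 8 below. *Stra6*, the retinol uptake receptor, had log2 ratios of 0.08, -0.09, 0.11, 0.13, -0.48, 0.03, -0.04 and -0.18 (mean -0.06, SE 0.075, adjusted p = 0.866, 95% confidence interval -0.23 to 0.12). Array 5 stood lowest for *Stra6*, as it did for *Crabp1* and *Cyp26b1*.

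**Figure D3:**
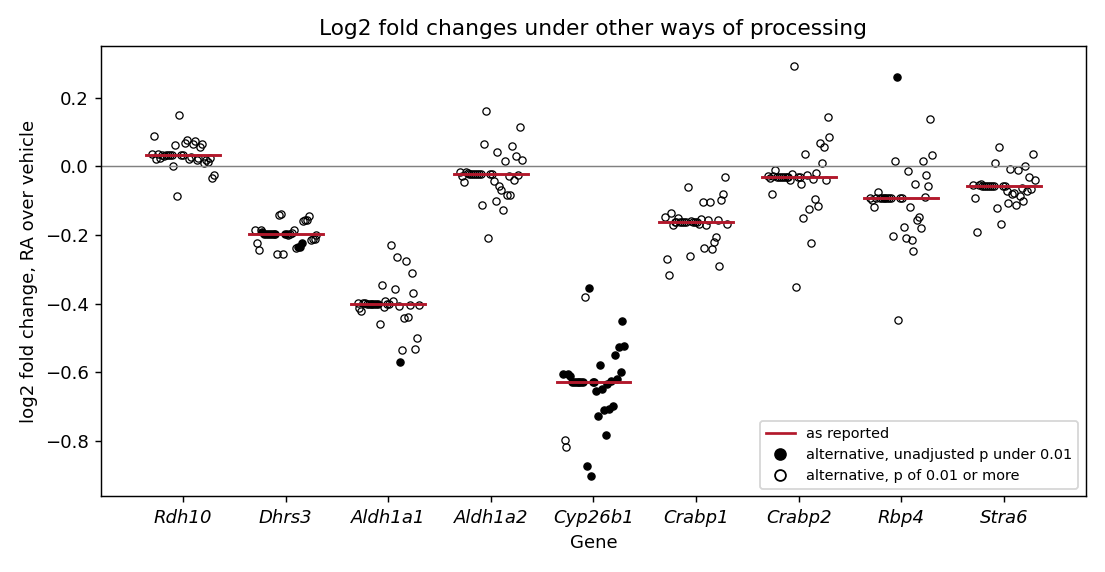
Log2 fold change of RA over vehicle (vertical axis) for the 9 retinoid genes (horizontal axis) as reported (red line) and under each of 34 alternatives (33 for *Rdh10*), filled where the unadjusted p was under 0.01. *Cyp26b1* lies between -0.90 and -0.35 with 31 of 34 filled, and *Dhrs3* between -0.26 and -0.14 with 11 of 34 filled. Alternatives that fit a single pairing could not lose a called gene.

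Across arrays, several of these genes varied together. The 8 arrays are not independent here, since dye-swaps repeat the same RNA, so correlations are given as descriptions over 8 points. Log2 ratios of *Rbp4* and *Aldh1a2* had a Pearson r of 0.949, those of *Rbp4* and *Crabp2* 0.913, and those of *Aldh1a2* and *Crabp2* 0.890. *Rdh10* ran the other way, with r = -0.849 against *Crabp2* and -0.838 against *Rbp4*. *Cyp26b1* ran closest to *Stra6* (r = 0.866). *Aldh1a1* and *Dhrs3* followed none of the others closely, their highest r being 0.550, with each other.

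The genes most like each member were sought among 10042 other detected genes. For *Crabp2* they were *Ogn* (r = 0.993), which encodes a proteoglycan of connective tissue, *Mustn1* (0.990) and *Cpxm2* (0.986). *Ogn* belongs to the list of leptomeningeal and fibroblast markers, for which 10 of 12 genes had a probe and 9 were detected. The median log2 ratio of that list on arrays 1 to 8 was -0.02, -0.03, 0.43, 0.47, -0.59, -0.003, 0.02 and -0.67, high on arrays 3 and 4 and low on arrays 5 and 8, as *Crabp2* was. Its r was 0.966 with *Crabp2*, 0.932 with *Aldh1a2*, 0.931 with *Rbp4*, 0.842 with *Stra6*, 0.789 with *Cyp26b1* and -0.809 with *Rdh10*. The summed intensity of the list was 11510 to 33320 with RA and 13750 to 29860 with vehicle. Its part in the values of these genes was not tested. In a bulk sample, fewer cells of a type and less RNA per cell cannot be told apart.

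Other lists ran beside single members. The pituitary list (6 genes, of which 3 were detected) had r = 0.888 with *Aldh1a2* and 0.869 with *Rbp4*, and its summed intensity was 2524 to 8796 with RA and 4883 to 10910 with vehicle. Within it, *Cga*, *Lhb* and *Tshb* were detected, and *Fshb* was well above background in 2 RA and 2 vehicle channels. *Gh1* and *Prl*, which define the largest cell types of the anterior pituitary, were each well above background in 1 of 16 channels. The tanycyte list, of cells that line the floor of the third ventricle, had r = 0.908 with *Crabp1*, with 8 of 10 genes measured, 6 of them detected, and a summed intensity of 8474 to 25180 with RA and 8532 to 14970 with vehicle. The oligodendrocyte list (7 of 7 genes detected) had r = 0.846 with *Aldh1a2*, and its summed intensity was 88390 to 176500 with RA and 92320 to 189800 with vehicle. The neuropeptide list had r = 0.834 with *Stra6* and -0.812 with *Rdh10*, with a summed intensity of 96300 to 209400 with RA and 104800 to 230200 with vehicle. The part of these lists in the members' values was not tested.

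*Aldh1a1* ran beside genes of dopamine neurons, some of which are known to express it. The 3 most similar genes were *Th* (r = 0.982), which encodes the rate-limiting enzyme of dopamine synthesis, *Slc6a3* (0.981), which encodes the dopamine transporter, and *Nat8l* (0.974), which makes N-acetylaspartate in neurons. Log2 ratios of *Th* on arrays 1 to 8 were -1.39, -1.46, 0.32, 0.30, -0.04, -0.89, -0.78 and 0.0001, so that it was low on the same 4 arrays as *Aldh1a1* and near 0 or above on the rest. Its mean of -0.49 did not pass the threshold. A list of 12 dopamine neuron genes, drawn up after this likeness had been seen, had 11 with a probe, 9 of them detected. Their median log2 ratio was -0.61, -0.75, 0.20, 0.28, -0.04, -0.46, -0.53 and 0.0001 on arrays 1 to 8. Of the 11 genes, 11, 10, 9 and 10 were below 0 on arrays 1, 2, 6 and 7. On arrays 3, 4, 5 and 8 the counts were 0, 1, 6 and 5. The summed intensity of the list was 7868 to 28650 with RA and 8388 to 24670 with vehicle. Its part in the *Aldh1a1* values was not tested.

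**Figure D4:**
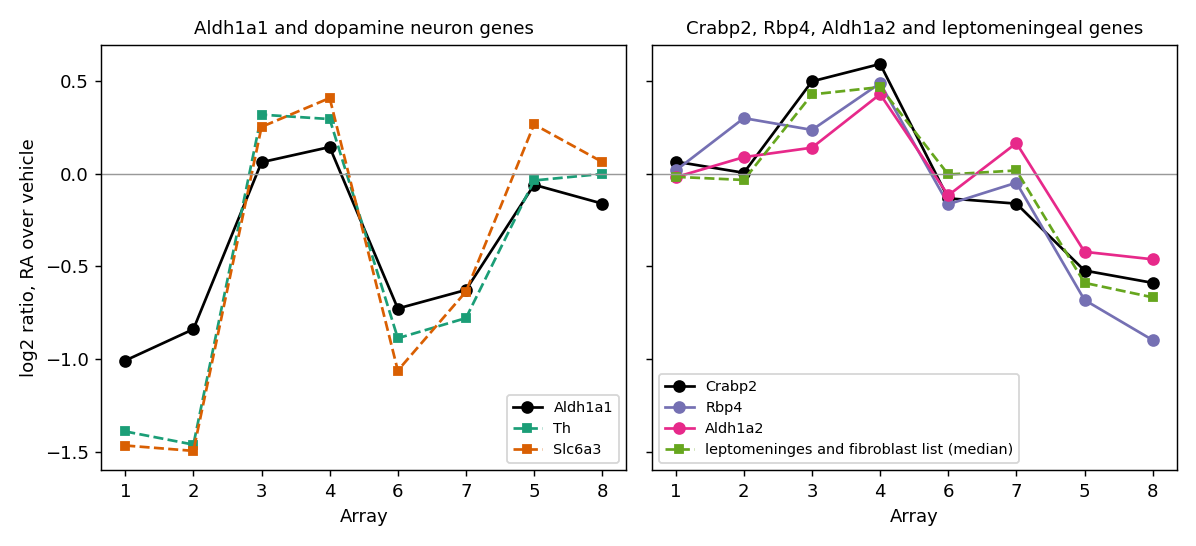
Log2 ratio of RA over vehicle (vertical axis) by array (horizontal axis, with arrays of like pattern placed side by side) for *Aldh1a1* with *Th* and *Slc6a3* (left) and for *Crabp2*, *Rbp4* and *Aldh1a2* with the median of the leptomeninges and fibroblast list (right). *Th* and *Slc6a3* are at -1.39 or lower on arrays 1 and 2, where *Aldh1a1* is at -0.84 or lower, and the list median runs from 0.47 on array 4 to -0.67 on array 8.

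For *Cyp26b1* and *Dhrs3* the closest genes were of mixed kinds. *Cyp26b1* was most like *Cpq* (r = 0.971), which encodes a carboxypeptidase, *Pgrmc2* (0.969), a progesterone receptor membrane component gene, and *Pln* (0.961), which encodes the calcium pump inhibitor phospholamban. *Dhrs3* was most like *Snap91* (0.979), a gene of synaptic vesicle recycling, *Sobp* (0.953) and *Msl1* (0.950). The differences of *Cpq* (-0.11), *Pgrmc2* (-0.06) and *Pln* (-0.14) were far smaller on average than that of *Cyp26b1* (log2 -0.63). *Rbp4* was closest to *Ppp1r1a* (0.987), *Scn9a* (0.978) and *Adcyap1* (0.972), *Aldh1a2* to *Lin7b* (0.987), *Maob* (0.975) and *Gpx8* (0.974), *Crabp1* to *Prmt2* (0.984), *Cd24* (0.973) and *Atf5* (0.966), and *Stra6* to *2700097O09Rikl* (0.960), *Ap4b1* (0.958) and *Cgref1* (0.956).

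Outside the 9 genes, 36 more genes of retinoid metabolism and binding were listed, of which 32 had a probe. None of the 32 passed the threshold in limma (0 higher and 0 lower), beside 4.31% of all named genes in either direction, and the median log2 fold change was -0.016. At an unadjusted p under 0.05 there were 5 of the 32, a share near the 13.1% of all named genes. Of the 32, 16 were detected and 7 had no channel well above background. *Cyp26a1*, the relative of *Cyp26b1* that RA induces in many tissues, was well above background in 1 RA and 1 vehicle channel of 8 each, so no level could be compared. *Aldh1a3*, the third RA-producing dehydrogenase, was well above background in 1 vehicle channel and no RA channel.

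Among the detected genes of this list and the receptors, the 6 with the largest differences did not pass the threshold either, and 5 are given here. The values were 0.33 (adjusted p = 0.418) for *Akr1b8*, an aldo-keto reductase gene, and 0.32 (adjusted p = 0.347) for *Fabp5*, which encodes a fatty acid-binding protein that also carries RA. *Rara*, which encodes RA receptor alpha, was at 0.21 (adjusted p = 0.364). These 3 were above 0 on 6 or 7 of the 8 arrays. *Ttr*, which encodes the plasma partner of RBP4 and is made in choroid plexus, had a mean of -0.28 (adjusted p = 0.959) with ratios from -5.11 to 1.76. *Rlbp1*, a retinaldehyde-binding protein gene, was at -0.13 (adjusted p = 0.388). Of the 6 receptor genes (RAR and RXR families) 5 had a probe, and 0 passed the threshold.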

How the data were processed

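Each two-colour array set hypothalamic RNA after RA against RNA after vehicle, from 4 male F344 rats per group, with dye-swap. The authors deposited the scanner output of 8 arrays (Agilent Feature Extraction 10.7.3.1), with linear intensity values per spot and channel and Agilent's log10 ratio of the 2 colours. Their series table, also deposited, holds log2 ratios and matched a loess ratio without background correction. Their methods used limma with loess, averaged identical probes, and took dye-swaps as a block.

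R 4.3.3 with limma 3.58.1 was used here. Spot medians were corrected with normexp (offset 50), loess was applied within arrays, outlier spots (0.913% to 2.42% per array) were dropped, spots of a probe were averaged, and ratios were turned to RA over vehicle. The number of arrays limits the precision. A probe needed Agilent's mark on 0.5 or more of its spots to count as well above background. Means of 4 pairs of arrays of opposite dye were tested against 0 in limma for all 24 pairings, and the largest p was kept. Benjamini-Hochberg adjustment covered 30367 probes. Names came from accessions matched, without versions, to RefSeq GRCr8 (18006 probes, 15159 genes, brightest probe per gene).

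The genes and lists were chosen with earlier results of these data known. The text names all 9 members, up to 6 other pathway or receptor genes with the largest differences (1 of them is not reported here), and the 3 genes most like each detected member. *Cyp26a1*, *Aldh1a3*, the single pituitary genes, the immune cell genes, the dopamine list and its values were added after values had been seen. So were the other cell lists set beside *Cyp26b1* and *Dhrs3* with the immune cell genes, and *Nefl* and *Nefm*. Alternatives were other background corrections, Agilent's ratio, the deposited values, scaling between arrays, bright probes, outlier spots kept, other treatments of dye-swaps, each dye order, each slide row, a variance trend and left-out arrays. The test was checked on simulated data.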

Additional observations from a re-analysis of the deposited data

Results flagged for a closer look

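*Rbp4* and *Crabp2* differed between the rows of the slide. For *Rbp4*, all 4 arrays of row 1 were above 0 (mean log2 ratio 0.26) and all 4 of row 2 below (mean -0.45), a difference of -0.709 (adjusted p = 0.0835). For *Crabp2* the row means were 0.29 and -0.35, a difference of -0.642 (adjusted p = 0.0931). Both p values come from limma with the 8 arrays taken as independent, although dye-swaps repeat the same RNA. Neither difference passed an adjusted p of 0.05, but both passed the unadjusted p under 0.01 that was used for the RA calls. The rows held 2 arrays of each dye order, and which rats they carried is not stated, so row and rat cannot be told apart. The leptomeninges and fibroblast list had medians from -0.03 to 0.47 in row 1 and from -0.67 to 0.02 in row 2. Dixon's criterion flagged no single array in 18 groups of 4 ratios (the 9 genes by dye order and by row). With 4 ratios a group, it can miss an array that stands apart. For *Dhrs3* in row 2, array 6 was at -0.51 and the other arrays were at -0.19 to -0.13. The *Dhrs3* call did not hold in any fit that left out array 6.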

How the results depend on the processing

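*Cyp26b1* had a p under 0.01 in 31 of 34 alternatives, including all 16 that left out 1 array of each dye order (log2 fold change -0.78 to -0.45). It missed that threshold with plain background subtraction (-0.80), with Agilent's log ratio (-0.82) and on the arrays with RA in Cy5 alone (-0.38, 4 arrays). Among the 34, fits of a single pairing could not lose a called gene, and a form of scaling between arrays (Aquantile) gave identical values. *Dhrs3* passed in 11 of 34, always below 0 (-0.26 to -0.14), and *Aldh1a1* in 2 of 34 (-0.57 to -0.23). *Crabp1* passed in none and kept its sign (-0.32 to -0.03). The count of lower members was 2. It was 1 without background correction, with the deposited values, with bright probes alone, on the arrays with RA in Cy3, on slide row 1, on slide row 2 and with a variance trend. It was 0 with plain subtraction, with Agilent's log ratio and with RA in Cy5, and 1 to 3 with arrays left out, the third being *Aldh1a1* without arrays 3 and 4. The count of higher members was 1 on slide row 1 (*Rbp4*) and 0 in every fit with arrays left out.

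Means near 0 changed sign. On slide row 1, *Aldh1a2* was 0.16, *Crabp2* 0.29, *Rbp4* 0.26, *Stra6* 0.056 and *Rdh10* -0.086. With RA in Cy3, *Aldh1a2* was 0.067 and *Rbp4* 0.016, and with RA in Cy5, *Stra6* was 0.0089. With arrays left out, *Aldh1a2* ranged from -0.13 to 0.12, *Crabp2* from -0.22 to 0.15, *Rbp4* from -0.245 to 0.14, *Rdh10* from -0.033 to 0.077 and *Stra6* from -0.11 to 0.036. The cause was not tested for any of these.

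Over all named genes, 534 were higher and 120 lower. The alternatives gave 112 (Agilent's ratio) to 1317 (slide row as a block) higher and 22 (plain subtraction) to 577 (the pairing with the most calls) lower. With Agilent's ratio the split was 112 to 104. Of the other pathway genes, at most 4 were higher and 1 lower (the pairing with the most calls). The planned comparison with other probes of each gene was not run, since each had 1, and *Rdh10* was lost with bright probes alone. No source states which arrays share RNA. In the data, deviations from the mean correlated at 0.50 to 0.74 within the pairs 1-2, 3-4, 6-7 and 8-5 and at most 0.26 elsewhere, a hint from the data and not from the design. A fit of that pairing alone gave the same 2 lower members and 0 higher, with 557 genes higher and 136 lower in all. The 2 lower members could not drop out there, because the p used for calls is the largest over all pairings. With pairs as a random block, the members' calls were also unchanged, with 858 higher and 243 lower in all.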
